A study of Mus musculus with 12 samples.

Results

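Early thymic progenitors labelled as double knockouts of Ezh2 and Runx1 were compared with control progenitors across all genes of the deposited expression table. The comparison takes the 4 double-knockout libraries and the 4 control libraries by their labels, which is 8 of the 12 libraries of the series. Early thymic progenitors (ETPs) are the first thymus-settling cells of the T lineage. Control ETPs carried Ezh2 fl/fl and Runx1 fl/fl alleles without Cre, so both genes were floxed but intact. Double-knockout ETPs (dKO) carried the same alleles with Rag1Cre+, in which Cre recombinase is driven from Rag1, a gene switched on as progenitors commit to lymphoid fates. The third group, dKO ETPs that also carried an Flt3 ITD allele, an activating duplication in a receptor kinase gene, entered the model only through the shared estimate of the spread and is otherwise quoted side by side. All mice were labelled C57BL/6; neither age nor sex was among the labels. Each library was made from 100 sorted cells with a SMARTer full-length cDNA kit. Separate animals are not named for the replicates in the labels, and each p-value therefore reflects only how far these libraries spread, which may be technical.

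EZH2 is the main catalytic subunit of Polycomb repressive complex PRC2, which places a repressive methyl mark on histone tails and keeps developmental and lineage genes silent. RUNX1 is a DNA-binding factor that works with the partner CBFB, recruits both activators and repressors, and is required for lymphoid and megakaryocyte programmes. Mutations of either gene recur in early T-cell precursor leukaemia, a disease whose blasts resemble ETPs and keep stem cell and myeloid features. The comparison asks which genes are expressed differently in ETPs labelled as knockouts of both regulators.

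Expression was given as RPKM, read counts scaled by gene length and library depth, for 13016 genes. The 10690 genes with 1 RPKM or more in at least 4 of the 12 libraries were tested with limma on log2(RPKM + 1), and the other 2326 were not. A gene was called when its Benjamini-Hochberg adjusted p was below 0.05, and every log2 difference below is dKO minus control on the log2(RPKM + 1) scale, which understates changes of genes near 0. Whole reads could be recovered from the steps in the RPKM values, and they summed to between 13623436 and 28932427 per library among the 8. The number of genes at 1 RPKM or more averaged 9516 ± 169.5 in control and 9595 ± 371 in dKO libraries (SD, n = 4 each), a difference within the spread (exact two-sided permutation test, p = 0.714).

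In these libraries, 2 stood apart. Control 1 had the lowest mean correlation of log2 values with the other 7 libraries (0.796), followed by dKO 1 (0.828), and the other 6 ranged from 0.844 to 0.872. In dKO 1 the X-inactivation transcript Xist was at 0.130 RPKM and the Y-linked helicase gene Ddx3y at 32.5 RPKM, whereas the other 7 libraries had Xist between 6.85 and 96.7 RPKM and Ddx3y at most 0.0865 RPKM. The pattern in dKO 1 is that of a male sample and the pattern in the others that of female samples.

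Marker genes of ETPs were present in both groups. Kit, the stem cell factor receptor that defines ETPs, was at 44.7 to 69.9 RPKM in control and 38.2 to 68.3 RPKM in dKO libraries, and the T-lineage regulators Notch1, Hes1 and Gata3 were at 15.5 RPKM or more in each of the 8. The summed level of the 15 ETP markers in the table was 632 to 761 RPKM in control and 486 to 646 RPKM in dKO libraries, and 1 of the 15 was called, Tcf7, which fell. Few markers of other tissues reached the level to be tested: 3 of thymic stroma and endothelium, 1 of erythroid and megakaryocyte cells and 1 of B cells, none of them called. Among the untested ones, the erythroid gene Alas2 was at 32.1 RPKM in dKO 1 and at most 0.796 RPKM in the other 7 libraries.

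The targeted genes came first. Ezh2 was at 45.7, 32.8, 43.3 and 37.4 RPKM in the control libraries and at 16.9, 24.8, 18.8 and 29.8 RPKM in the dKO libraries. All 4 dKO values lay below all 4 control values, and the mean went from 39.8 ± 5.83 to 22.6 ± 5.87 RPKM (SD, n = 4; exact two-sided permutation test, p = 0.0286, the smallest p that 4 against 4 allows). Across all genes the same difference did not pass limma (log2 difference -0.81, SE 0.35, adjusted p = 0.470). Runx1 went the other way: it was at 24.96, 18.3, 16.3 and 25.3 RPKM in control and 38.1, 58.2, 35.9 and 53.4 RPKM in dKO libraries. The means were 21.2 ± 4.57 and 46.4 ± 11.1 RPKM (SD, n = 4; exact two-sided permutation test, p = 0.0286), and limma gave a log2 difference of 1.09 (SE 0.33, adjusted p = 0.184). A value summed over a whole gene does not show whether a floxed part is missing, so neither gene's level verifies the deletion, and in bulk RNA fewer cells with a transcript cannot be told apart from less RNA per cell.

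Flt3, the cytokine receptor that marks early lymphoid progenitors, was at 53.3 to 109.8 RPKM in control and 12.9 to 38.7 RPKM in dKO libraries, without overlap (exact two-sided permutation test, p = 0.0286; limma adjusted p = 0.323). Rag1 itself was low in both groups, at 0.915 ± 0.771 RPKM in control and 2.58 ± 1.62 RPKM in dKO libraries (SD, n = 4; exact permutation p = 0.114). Exact tests of this kind were run on 7 single measures, and the Benjamini-Hochberg value over the 7 was 0.0667 for Ezh2, Runx1 and Flt3.

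Over the whole table, 109 of the 10690 tested genes were called, or 1.02%: 84 rose in dKO ETPs (0.786%) and 25 fell (0.234%). For 674 genes (6.30%) the 4 dKO values did not overlap the 4 control values, lying above them for 420 genes and below them for 254. At an unadjusted p under 0.05 there were 981 genes. The median log2 difference over all tested genes was 0.01, with quartiles at -0.374 and 0.388, and 177 genes were higher and 72 lower by 2 or more on the log2 scale. Called genes had large differences: the median was 2.98 among those that rose and -3.24 among those that fell, and the smallest in size was -1.22, of H2afy.

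These counts depend on single libraries. When each of the 8 was left out in turn, between 58 and 95 genes were called, and 46 of the 109 were called in all 8 of those fits (35 up, 11 down). Those fits kept the third group, and a fit of only the 8 compared libraries called 136 genes, 100 of them among the 109. Without dKO 1, the library with the male pattern, 67 genes were called, 63 of them among the 109; without dKO 3 the number was 63 and without dKO 4 it was 58. A voom fit on the recovered reads, which weights each value by its count, called 5 genes: Ifitm1, Ifitm3, Serpina3g and Sdcbp up, which are also among the 109, and Dntt down.

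**Figure D1:**
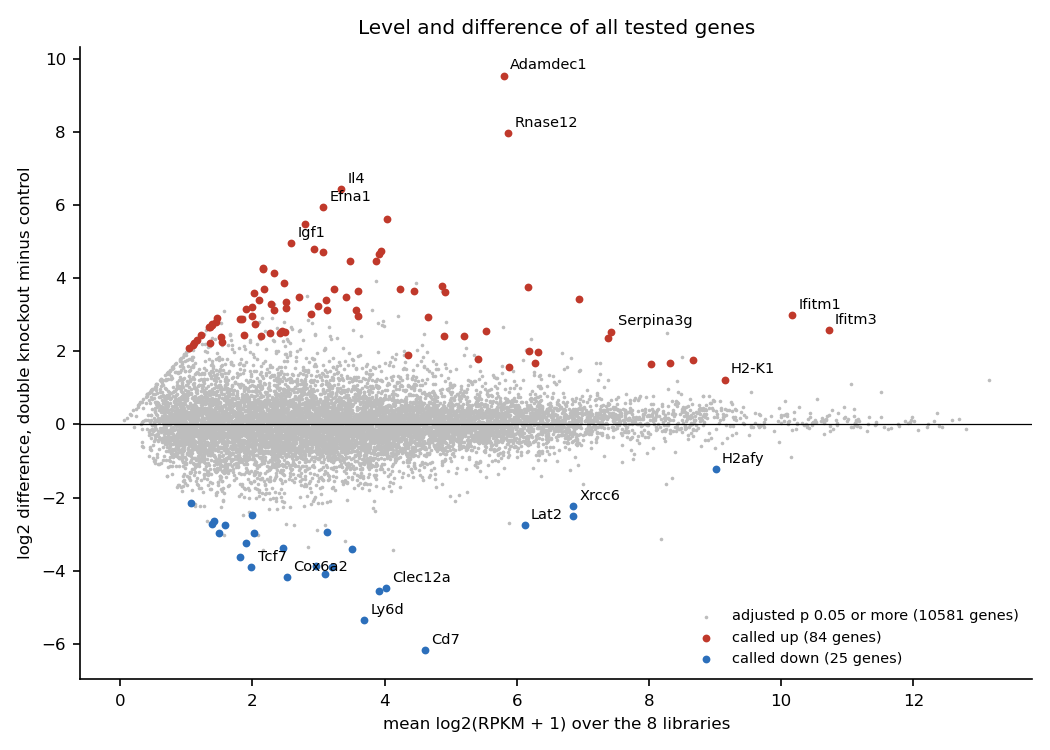
Each point is 1 of the 10690 tested genes, with the mean log2(RPKM + 1) over the 8 libraries on the x axis and the log2 difference, dKO minus control, on the y axis; red points rose (84 genes), blue points fell (25 genes) and grey points were not called. Adamdec1 and Rnase12 stand highest on the y axis.

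Genes for secreted proteins led the induced genes. Adamdec1 encodes a secreted metalloprotease-like protein known from macrophages and dendritic cells, and lies at chr14:68563380-68582095 in GRCm38. It was at 0.214, 0.832, 2.73 and 1.13 RPKM in control libraries and at 1389.5, 1076, 1536 and 2347 RPKM in dKO libraries. Each dKO library was thus far above each control library (log2 difference 9.54, SE 0.79, limma adjusted p = 3.03e-06). Rnase12, which encodes a member of the ribonuclease A family, was at 0.406, 1.56, 1.84 and 17.3 RPKM in control and 1871, 649.7, 718 and 843 RPKM in dKO libraries. Its control and dKO values were far apart although control 4 stood above the other controls and dKO 1 above the other dKO libraries (log2 difference 7.97, SE 0.72, adjusted p = 8.87e-06).

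Other ribonuclease genes of the same chromosome 14 cluster rose too. Rnase10 was at 0.0221, 0.241, 1.40 and 9.03 RPKM in control and 195, 52.2, 106 and 155 RPKM in dKO libraries, and control 4 was again the highest control (log2 difference 5.61, SE 0.70, adjusted p = 0.000390). Rnase4 rose from 11.1 ± 7.997 to 110.3 ± 32.9 RPKM (SD, n = 4; limma adjusted p = 0.0114).

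The cytokine gene Il4, which encodes the type 2 cytokine interleukin 4, was at 0, 0.119, 0.238 and 0.0411 RPKM in control and 80.6, 75.5, 99.4 and 125 RPKM in dKO libraries. It was close to silent in every control and similar in the 4 dKO libraries, and it had the smallest adjusted p of the table (log2 difference 6.43, SE 0.41, limma adjusted p = 1.48e-07). Igf1, the gene of insulin-like growth factor, was at 0.00472, 0.0513, 0.236 and 0.0354 RPKM in control and 46.5, 11.1, 33.8 and 63.1 RPKM in dKO libraries. The lowest dKO library, dKO 2, was still well above the highest control (log2 difference 4.96, SE 0.76, adjusted p = 0.00232). Of 19 tested cytokine genes these 2 were called (10.5%, beside 1.02% of all tested genes). This and every later list was chosen with earlier results of these data known, so its share of called members is only a description. The list's median log2 difference was 0.567 beside 0.01 for all genes, and it was 0.188 without control 3 and 0.346 without control 1.

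Efna1, which encodes a membrane-anchored ligand of Eph receptors, was at 0, 0.0611, 0.171 and 0.0422 RPKM in control and 75.3, 39.7, 76.6 and 77.3 RPKM in dKO libraries. dKO 2 was the low one of an otherwise tight group (log2 difference 5.95, SE 0.67, adjusted p = 0.000156). Casp12, an inflammatory caspase gene, was at most 0.0193 RPKM in control and 10.3 to 25.4 RPKM in dKO libraries. Ptprr, a receptor-type tyrosine phosphatase gene that acts on MAP kinases, was at most 0.0497 RPKM in control and 13.1 to 26.0 RPKM in dKO libraries. Cd200r1, an inhibitory receptor of myeloid cells, rose from 0.607 ± 0.899 to 39.8 ± 7.83 RPKM (SD, n = 4; limma adjusted p = 0.00350). All 10 of these genes, from Adamdec1 to Cd200r1, kept their call in each fit that left out 1 library.

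**Figure D2:**
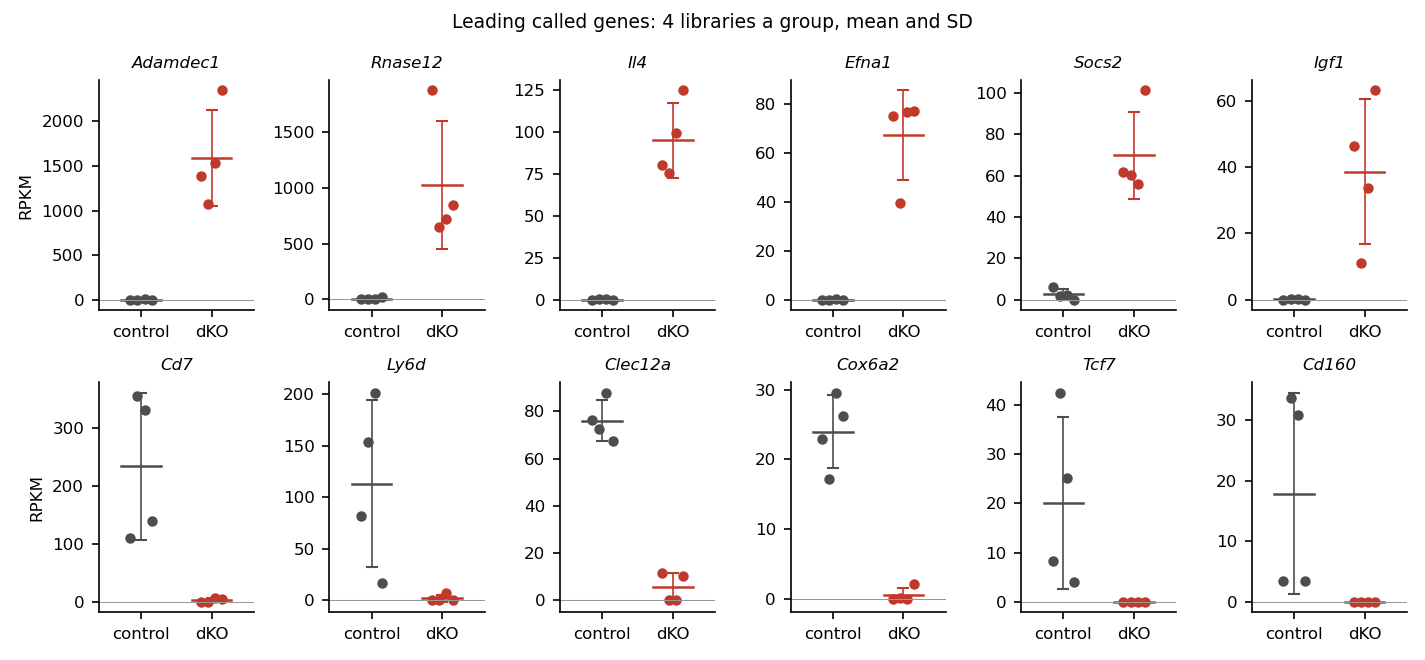
RPKM on linear y axes in each of the 4 control (grey) and 4 dKO (red) libraries for 6 genes that rose (top row) and 6 that fell (bottom row); points are libraries, the horizontal line is the group mean and the bar its SD. In every panel the groups do not overlap, and Cd160 was listed at 0 in all 4 dKO libraries.

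Some of the induced genes are markers of myeloid cells, and the summed marker lists of myeloid cell types are given beside them. The summed level of 14 macrophage and monocyte markers was 99.2 to 237 RPKM in control and 1210 to 2560 RPKM in dKO libraries, but without Adamdec1 the sums were 98.9 to 236 and 138 to 322 RPKM, with overlap. Of the 11 tested, 10 had a positive difference and 1 was called, Adamdec1 itself, beside 1.02% called of all tested genes. The defining macrophage genes Csf1r and Cd68 were at 18.5 to 27.9 and 9.28 to 32.8 RPKM in dKO libraries beside 4.54 to 40.2 and 2.78 to 11.3 RPKM in control, and neither was called. Of 14 mast cell and basophil markers only 5 were in the table, and Fcer1a, Ms4a2, Tpsb2 and Tpsab1 were among the absent ones. The 5 summed to 17.4 to 127 RPKM in control and 196 to 424 RPKM in dKO libraries, without overlap. Most of that sum was Cpa3, at 16.2 to 113 RPKM in control and 107 to 319 RPKM in dKO libraries and not called, and the Il4 described above, whereas Hdc, the histamine-forming enzyme gene, was at 2.59 RPKM or less in all 8. Granulocyte markers, 6 of 14 in the table, summed to 71.1 to 244 RPKM in control and 34.3 to 143 RPKM in dKO libraries. Without Mpo (66 to 230 against 15.4 to 105 RPKM) the sums were 5.1 to 28.9 and 18.9 to 70.5 RPKM. Dendritic cell markers, 8 of 11 in the table, summed to 148 to 444 RPKM in control and 137 to 246 RPKM in dKO libraries. No member of either list was called. The part of other cell types in the differences of Adamdec1, Il4 and the myeloid receptors was not tested.

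**Figure D3:**
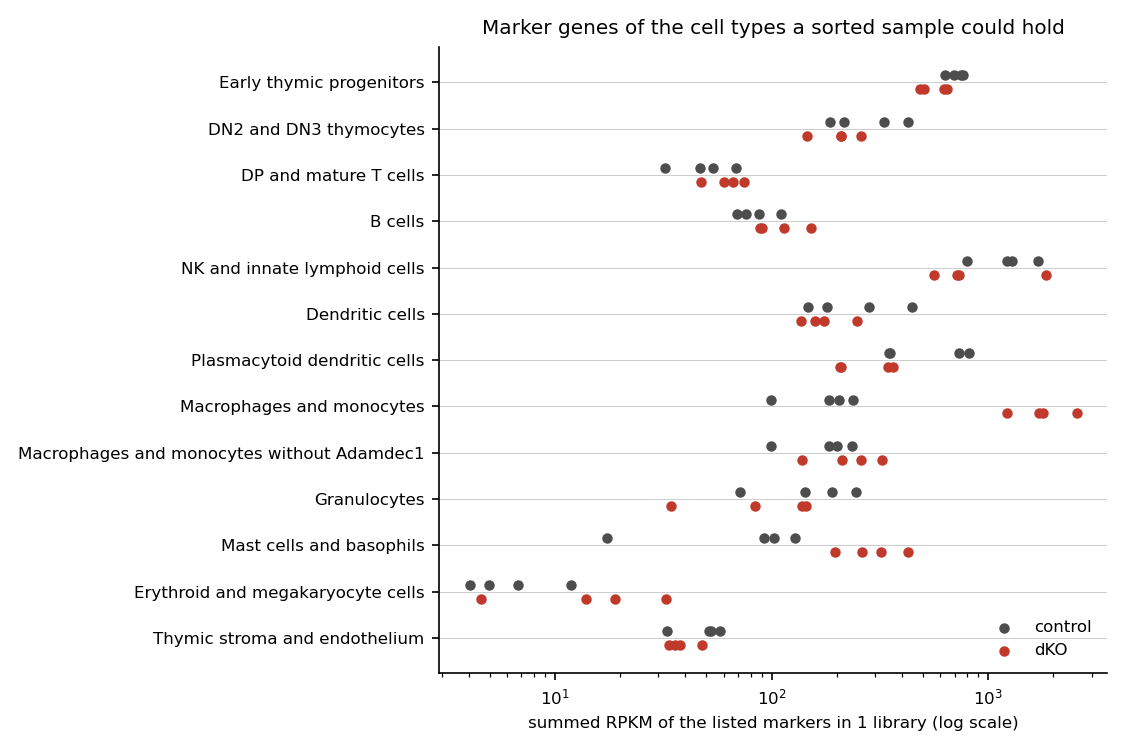
Summed RPKM of the markers of each cell type in 1 library on a logarithmic x axis, with control libraries in grey and dKO libraries in red. The macrophage sums of the 2 groups separate with Adamdec1 (99.2 to 237 against 1210 to 2560) and overlap without it (98.9 to 236 against 138 to 322).

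Among stem cell surface genes, 3 of 14 rose (21.4%, beside 1.02% of all tested genes), Esam and Procr among them, and none fell. Esam, an adhesion molecule used to isolate haematopoietic stem cells, was at 0, 5.47, 0.0865 and 0.0187 RPKM in control and 19.6, 50.4, 55.0 and 56.6 RPKM in dKO libraries (log2 difference 4.72, SE 0.79, limma adjusted p = 0.00483). Procr, which encodes the endothelial protein C receptor of stem cells, was at 0.539, 0.167, 0.426 and 11.3 RPKM in control and 27.3, 46.7, 100.1 and 53.3 RPKM in dKO libraries (log2 difference 4.46, SE 0.76, adjusted p = 0.00585). For both genes the groups did not overlap, and the call held in every fit that left out 1 library. The list as a whole had a median log2 difference of 0.91. The progenitor antigen genes Ly6a and Cd34 stood at 481 against 1689 RPKM and 345 against 203 RPKM (control against dKO means) and were not called.

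Transcription factors of stem cells did not follow as a group. None of the 19 tested was called, and the median log2 difference was 0.228. Meis1, a stem cell homeobox gene, was at 19.8 to 30.8 RPKM in control and 41.9 to 78.6 RPKM in dKO libraries, without overlap but not called (adjusted p = 0.229). The homeobox gene Hoxa9 had the opposite sign, with 8.84 to 33.4 RPKM in control and 0.250 to 5.32 RPKM in dKO libraries (adjusted p = 0.0768).

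Cytokine signalling genes gave a mixed picture. Socs2, which encodes a feedback inhibitor that JAK-STAT signalling induces, was at 6.45, 2.08, 2.30 and 0.192 RPKM in control and 61.6, 60.4, 55.7 and 101 RPKM in dKO libraries. All dKO values lay above all control values (log2 difference 4.48, SE 0.56, limma adjusted p = 0.000427). Of 24 tested STAT5 targets and SOCS genes, 2 were called (8.33%, beside 1.02% of all tested genes), Socs2 and Gimap4, both upward. The list's median was -0.168, with 11 members positive and 13 negative, and it ranged from -0.267 to 0.141 in the fits without 1 library. Cish, a related inhibitor gene, stood at 9.87 against 53.02 RPKM without overlap and missed the threshold (adjusted p = 0.0583). The cyclin genes Ccnd1 (10.3 against 1.58 RPKM, adjusted p = 0.0683) and Ccnd2 (56.3 against 24.7 RPKM, adjusted p = 0.0938), also on that list, lay on the other side. None of the 11 JAK and STAT genes was called. Of the 35 cytokine receptor chains, 1 was called, upward (2.86%, beside 1.02% of all tested genes), and the median of that list was -0.108.

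Genes of lymphoid priming led the genes that fell. Cd7, a surface glycoprotein gene of early T and natural killer cells, was at 110.4, 354, 332 and 139 RPKM in control and 0.173, 0.442, 6.68 and 4.13 RPKM in dKO libraries. Even the highest dKO library was far below the lowest control (log2 difference -6.18, SE 0.98, limma adjusted p = 0.00325). Ly6d, which marks lymphoid-primed progenitors, was at 81.7, 153, 202 and 17.0 RPKM in control and 0.693, 0.0950, 7.38 and 0.0777 RPKM in dKO libraries (log2 difference -5.35, SE 0.80, adjusted p = 0.00203). Cox6a2, a cytochrome oxidase subunit gene that plasmacytoid dendritic cells express, was at 22.9, 17.2, 29.6 and 26.3 RPKM in control and 0, 0.0996, 0 and 2.04 RPKM in dKO libraries (log2 difference -4.18, SE 0.48, adjusted p = 0.000176).

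These 3 were the only called members of 21 tested lymphoid priming genes (14.3%, beside 1.02% of all tested genes). The list's median log2 difference was -0.122, and 28.6% of its members had groups without overlap, beside 6.30% of all tested genes. The same 3 were the called members of 7 tested plasmacytoid dendritic cell markers, again beside 1.02% of all tested genes. Both lists were chosen with earlier results of these data known. Their shares of called members are therefore not independent of these values and lend no support to a loss of either programme. The plasmacytoid markers summed to 347 to 816 RPKM in control and 207 to 363 RPKM in dKO libraries. Siglech, a defining marker of those cells, was at 0.246 RPKM or less in all 8 libraries. Of other priming genes, Cd27 was at 341 against 306 RPKM and Rag2 at 12.4 against 84.2 RPKM (control against dKO means), and neither was called. The Rag2 groups did not overlap.

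Tcf7 encodes TCF-1, the factor through which Notch signalling starts the T-cell programme. It was at 8.39, 42.4, 25.2 and 4.08 RPKM in control and 0.0535, 0.0293, 0 and 0.0240 RPKM in dKO libraries. The transcript was thus close to 0 in each dKO library, while the controls themselves ranged widely (log2 difference -3.89, SE 0.59, limma adjusted p = 0.00232). Tcf7 was the only called member of 18 tested T-cell specification factors (5.56%, beside 1.02% of all tested genes). The median of that list was 0.0428, and its sign turned when libraries were rescaled to the same sum (-0.0915). Gata3, the other early T-lineage regulator, was at 21.6 ± 7.15 and 25.5 ± 9.27 RPKM (SD, n = 4; limma adjusted p = 0.964).

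None of 12 Notch receptors and targets was called: Notch1 was at 30.1 against 28.5 RPKM and Hes1 at 47.4 against 65.1 RPKM. None of 16 genes of the T-cell receptor complex and its signalling was called either, with a median of -0.419 (from -0.471 to -0.128 in the fits without 1 library). Dntt, the polymerase gene that adds bases at antigen receptor joints, was at 389, 987, 1379 and 1029 RPKM in control and 82.0, 75.05, 137 and 102 RPKM in dKO libraries. Those groups did not overlap, but the value missed the limma threshold (log2 difference -3.14, SE 0.84, adjusted p = 0.0982), and the voom fit called it. With only the 8 compared libraries fitted, the limma adjusted p of Dntt was 0.000643. Lck, the kinase gene of T-cell receptor signalling, was at 244 ± 111 and 80.8 ± 44.6 RPKM (SD, n = 4; limma adjusted p = 0.203).

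Cd244, a receptor gene of natural killer and progenitor cells, was at 39.1, 37.1, 26.5 and 38.6 RPKM in control and 4.21, 0.0873, 1.30 and 1.5002 RPKM in dKO libraries (log2 difference -3.91, SE 0.54, limma adjusted p = 0.000999). Cd160 was at 3.52, 33.8, 30.9 and 3.54 RPKM in control and listed at 0 in all 4 dKO libraries (adjusted p = 0.00739). Havcr2, which encodes the receptor TIM-3, fell from 11.6 ± 5.60 to 0.225 ± 0.157 RPKM (SD, n = 4; limma adjusted p = 0.00325). These 3 calls held in each fit that left out 1 library.

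Others were less firm to the omission of 1 library, in fits that kept the third group. Clec12a, a C-type lectin receptor gene, was at 76.4, 72.3, 88.0 and 67.5 RPKM in control and 11.5, 0, 0.0319 and 10.004 RPKM in dKO libraries (adjusted p = 0.0395). Its call was lost when any control, dKO 2 or dKO 3 was left out. Lat2, an adaptor gene of immune receptors, fell from 181 ± 16.01 to 27.6 ± 11.02 RPKM (SD, n = 4; limma adjusted p = 0.0219), a call that held only when dKO 1 was the library left out. With only the 8 compared libraries fitted, Lat2 had a limma adjusted p of 0.000822, and by voom it had 0.0526. The same 8-library limma fit gave 0.0102 for Clec12a, beside 0.00168 for Cd244, 0.0247 for Cd160 and 0.00633 for Havcr2. By voom these genes had adjusted p of 0.168, 0.0902, 0.146 and 0.167 in that order. Ctsw, a protease gene of cytotoxic cells, was 1 of 2 called genes whose groups overlapped (St3gal6 was the other), with dKO 2 at 12.5 RPKM and control 1 at 9.997 RPKM (limma adjusted p = 0.0379). Its call was lost without any of controls 2 to 4, dKO 1, dKO 3 or dKO 4. Of the natural killer markers, Nkg7 was abundant in both groups (780.4 to 1627 RPKM in control, 559 to 1841 RPKM in dKO libraries) and Eomes was at 0.0884 RPKM or less in all 8. Klrd1 was at 15.9, 31, 26.1 and 70.5 RPKM in control and 0, 1.97, 12.2 and 2.85 RPKM in dKO libraries. Its groups did not overlap, but it was not called (limma adjusted p = 0.156). Without Nkg7 the listed markers summed to 16.3 to 70.9 RPKM in control and 4.18 to 17.9 RPKM in dKO libraries.

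The other genes of large decrease have varied roles. Lcn4, a lipocalin gene, was at 129, 43.3, 73.2 and 64.7 RPKM in control and 8.97, 2.97, 0 and 1.39 RPKM in dKO libraries (log2 difference -4.55, SE 0.85, limma adjusted p = 0.0126). Pmm1, which encodes a phosphomannomutase of sugar metabolism, was at 28.2, 23.5, 25.3 and 18.02 RPKM in control and 0.435, 5.25, 1.40 and 3.60 RPKM in dKO libraries (log2 difference -2.96, SE 0.53, adjusted p = 0.00828). Both calls, and that of Fam69b (20.95 ± 14.6 to 1.10 ± 1.74 RPKM, SD, n = 4; limma adjusted p = 0.0127), held in each fit without 1 library.

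Smim5, a small membrane protein gene, was at 19.9 to 82.3 RPKM in control and 0 to 3.51 RPKM in dKO libraries (limma adjusted p = 0.0168) and lost its call without control 3, dKO 1 or dKO 4. Cd72, an inhibitory receptor gene best known from B cells, was at 25.001 to 49.3 RPKM in control and 0.0398 to 11.7 RPKM in dKO libraries (adjusted p = 0.0182) and lost it without control 3, control 4, dKO 1 or dKO 4. Trp53i11, at 13.3 against 0.487 RPKM, lost its call without control 3, control 4, dKO 1, dKO 3 or dKO 4 (adjusted p = 0.0269). Hemgn, a gene of haematopoietic progenitors, was at 0.846 to 20.2 RPKM in control and at most 0.0465 RPKM in dKO libraries (adjusted p = 0.0356), and its call held only when control 1 was left out. Sytl3, a vesicle transport gene, was at 1.94, 4.43, 2.73 and 5.46 RPKM in control and listed at 0 in all 4 dKO libraries (adjusted p = 0.0171); the call was lost without control 2, control 4, dKO 1, dKO 3 or dKO 4. All of these genes had groups that did not overlap.

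Stretches before the start sites of 4 of these genes are shown because they hold the core RUNX motif and belong to the called genes with the largest differences among those that hold it, 2 that rose and 2 that fell. Each is the 250 bases before the start site, 5′ to 3′ on the gene's strand, from RefSeq promoters on GRCm38.p6. Capitals mark TGTGGT or TGCGGT, searched on both strands, so the reverse complements ACCACA and ACCGCA are capitals too. The stretches lie at chr14:51007501-51007750 (plus strand) for Rnase10, chr12:104214294-104214543 (plus strand) for Serpina3f, chr6:129349994-129350243 (plus strand) for Clec12a and chr3:96829352-96829601 (minus strand) for Cd160.
Rnase10: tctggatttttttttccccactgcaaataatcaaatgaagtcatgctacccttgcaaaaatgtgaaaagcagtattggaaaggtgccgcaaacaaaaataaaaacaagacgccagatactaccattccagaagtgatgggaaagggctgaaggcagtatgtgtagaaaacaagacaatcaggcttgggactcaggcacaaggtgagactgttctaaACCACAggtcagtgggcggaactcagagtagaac
Serpina3f: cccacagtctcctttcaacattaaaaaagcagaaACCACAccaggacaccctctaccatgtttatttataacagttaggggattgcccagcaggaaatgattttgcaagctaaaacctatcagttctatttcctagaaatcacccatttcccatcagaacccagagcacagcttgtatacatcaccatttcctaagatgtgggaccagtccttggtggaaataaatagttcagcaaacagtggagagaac
Clec12a: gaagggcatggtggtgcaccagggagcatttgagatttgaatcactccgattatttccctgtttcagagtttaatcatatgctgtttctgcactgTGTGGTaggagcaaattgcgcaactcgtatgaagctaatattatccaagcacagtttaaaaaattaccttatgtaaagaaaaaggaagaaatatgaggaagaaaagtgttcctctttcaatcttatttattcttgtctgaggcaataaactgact
Cd160: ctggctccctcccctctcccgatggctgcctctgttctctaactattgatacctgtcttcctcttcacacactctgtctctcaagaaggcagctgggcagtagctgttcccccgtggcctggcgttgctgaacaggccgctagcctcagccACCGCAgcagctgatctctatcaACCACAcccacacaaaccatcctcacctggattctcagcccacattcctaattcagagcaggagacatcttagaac
Rnase10, Serpina3f and Clec12a each held 1 match and Cd160 held 2. Among 10900 promoters of tested genes, 17.8% held a match in the 250 bases. A comparison of that share between called and other genes is void, because only 59 of the 84 genes that rose and 17 of the 25 that fell had a promoter in the table, which is under 80%. A match is a run of letters and not a measured binding site.

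Interferon response genes lay higher in dKO ETPs almost throughout. Of 46 tested, 45 had a positive log2 difference (all but Eif2ak2), the median was 1.23 beside 0.01 for all genes, and for 15 the dKO values lay above every control value. Those 15 are 32.6% of the list, beside 6.30% of all tested genes without overlap in either direction. Of the 46, 4 passed the test (8.70%, beside 1.02% of all), all upward: Iigp1, Igtp, Gbp2 and Oas3. Igtp, an interferon-inducible GTPase gene, was at 22.3, 39.2, 44.1 and 40.1 RPKM in control and 119.9, 81.1, 199 and 221 RPKM in dKO libraries (log2 difference 1.996, SE 0.40, limma adjusted p = 0.0171). Gbp2, a guanylate-binding protein gene, rose from 19.8 ± 9.59 to 124 ± 67.2 RPKM (SD, n = 4; adjusted p = 0.0210 by limma). Iigp1, another inducible GTPase gene, was at 12.01 against 123 RPKM and Oas3, a sensor of double-stranded RNA, at 9.92 against 39.7 RPKM.

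The 4 calls were not stable to single libraries. Iigp1 lost its call without dKO 3 or dKO 4, Igtp without those 2 or control 1, Gbp2 without those 2, control 1 or control 4, and Oas3 in 7 of the 8 fits, all but the one without dKO 2. The list's median stayed positive, between 0.908 and 1.45, in all 8. Gbp7 just missed the threshold (39.6 against 132 RPKM, adjusted p = 0.0502), and well-known members such as Isg15 (35.1 against 153 RPKM, adjusted p = 0.136) and Irf7 (50.2 against 134 RPKM, adjusted p = 0.246) were not called.

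The Ifitm genes, which encode small membrane proteins that interferon induces, were among the most abundant genes that rose. Ifitm1 was at 426, 599.9, 512 and 209 RPKM in control and 6037, 3018, 1843 and 3339 RPKM in dKO libraries (log2 difference 2.996, SE 0.43, limma adjusted p = 0.00147). Ifitm3 was at 610.4, 812, 628 and 722 RPKM in control and 7574, 3083, 3302 and 3704 RPKM in dKO libraries (log2 difference 2.58, SE 0.40, adjusted p = 0.00297). The groups were well apart for both, and dKO 1 was the highest library for both. Their neighbour Ifitm2 was already abundant in control, at 1200.5 ± 306 RPKM, and was not called in dKO libraries at 2043 ± 1031 RPKM (SD, n = 4; limma adjusted p = 0.632).

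Serpina3g and Serpina3f, adjacent genes of serine and cysteine protease inhibitors, both rose. Serpina3g was at 45.3, 103, 94.1 and 56.4 RPKM in control and 355, 206, 749.8 and 541 RPKM in dKO libraries (log2 difference 2.54, SE 0.40, limma adjusted p = 0.00325). Serpina3f was lower, at 3.82, 5.08, 1.21 and 0.181 RPKM in control and 28.7, 45.8, 171 and 169 RPKM in dKO libraries (log2 difference 4.76, SE 0.62, adjusted p = 0.000698). The 2 genes belong to a family of close copies, so reads could have been shared between them in the counting.

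Antigen presentation genes of class I had positive differences in 20 of 21 cases, with a median of 0.632. For 6 of the 21 the groups did not overlap (28.6%, beside 6.30% of all tested genes), and 1 was called (4.76%, beside 1.02%). H2-K1, a classical class I heavy chain gene, was at 524, 344, 276 and 377 RPKM in control and 1153, 862, 755 and 750.0 RPKM in dKO libraries and was the only one called (log2 difference 1.22, SE 0.28, limma adjusted p = 0.0395). That call held in 1 of the 8 fits without 1 library, the one without control 1, and H2 genes are near-identical copies among which reads can be shared. H2-D1 (226 against 438 RPKM, adjusted p = 0.0829) and B2m, the common light chain gene (5998 against 14655 RPKM, adjusted p = 0.145), did not overlap between groups either. None of 14 class II genes was called, with a median of 0.35 that ranged from -0.0623 (without control 1) to 0.518 in the fits without 1 library.

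Of 8 Gimap genes, which encode GTPases of lymphocyte survival, all 8 had a positive difference and the median was 1.15. Gimap4 alone was called (12.5% of the list, beside 1.02% of all tested genes). It rose from 7.77 ± 5.31 to 88.3 ± 47.1 RPKM (SD, n = 4, limma adjusted p = 0.0171). Its call was lost without dKO 1, dKO 3 or dKO 4. Gimap4 lies within 2 Mb of Ezh2 on chromosome 6. Of 31 tested genes within 2 Mb of Ezh2 there, Gimap4 was the 1 called, and 3 lay above and 1 below without overlap. Of all tested genes, 1.02% were called and 6.30% had no overlap. The median log2 difference of the 31 was 0.62. All 8 Gimap genes are among the 31, and Gimap3 and Gimap4 are among those that lay above, so the 2 sets of values are not separate. Within 2 Mb of Runx1 none of 34 tested genes was called and within 2 Mb of Rag1 none of 12. Of the 12, Rag2 lay above without overlap (12.4 against 84.2 RPKM, limma adjusted p = 0.221), and of the 34 no gene was without overlap. Chemokine genes had a median of 2.21 over 7 tested and none was called; Ccl5 was at 7.58 ± 5.99 and 44.4 ± 22.3 RPKM (SD, n = 4; limma adjusted p = 0.178).

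Of 2980 genes with a mean of 20 RPKM or more in both groups, 15 rose and 4 fell, which is 0.638% called, below the 1.02% of all tested genes. The 8 of smallest p upward were Ifitm1, Ifitm3, Serpina3g, Cox4i2, Dtnbp1, Capg, Chchd7 and Cd81. Cox4i2, an alternative cytochrome oxidase subunit gene, was at 20.1, 27.2, 41.8 and 77.8 RPKM in control and 718, 251, 386 and 380.4 RPKM in dKO libraries (log2 difference 3.43, SE 0.55, limma adjusted p = 0.00345). Dtnbp1, the dysbindin gene of vesicle trafficking, had tight groups at 43.1 ± 9.47 and 138 ± 17.4 RPKM (SD, n = 4; limma adjusted p = 0.00380). Capg, an actin-capping protein gene, rose from 22.3 ± 4.94 to 79.5 ± 12.8 RPKM, and the tetraspanin gene Cd81 from 188 ± 81.7 to 598 ± 218 RPKM (SD, n = 4; limma adjusted p = 0.0130 and 0.0160). Cd81 lost its call without dKO 1 or control 2, and Capg without dKO 3 or dKO 4. Chchd7, a mitochondrial protein gene, was at 33.2 ± 3.91 and 102 ± 17.96 RPKM (SD, n = 4; limma adjusted p = 0.0139) and lost its call without dKO 4.

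The 4 abundant genes that fell were Xrcc6, Lat2, H2afy and Lgals1. Xrcc6, which encodes the Ku70 subunit of DNA end joining, was at 132, 330.2, 384 and 233 RPKM in control and 27.0, 62.4, 68.0 and 66.1 RPKM in dKO libraries (log2 difference -2.23, SE 0.43, limma adjusted p = 0.0160). dKO 1 was the lowest, and the call was lost without dKO 1, control 2 or control 3. Xrcc6 was the only called gene of 54 DNA repair genes (1.85%, beside 1.02% of all tested genes). The median of that list was -0.0623 (from -0.171 to 0.0461 in the fits without 1 library). H2afy, the gene of the histone variant macroH2A, was at 1094, 663, 719 and 729.6 RPKM in control and 442, 385, 285 and 267 RPKM in dKO libraries (log2 difference -1.22, SE 0.27, adjusted p = 0.0384). Lgals1, a galectin gene, fell from 279 ± 52.98 to 49.4 ± 16.2 RPKM (SD, n = 4; limma adjusted p = 0.0490). The H2afy call held only without dKO 1, and the Lgals1 call in none of the 8 fits without 1 library. Those fits kept the third group, where Lgals1 ranged from 54.9 to 673 RPKM. With only the 8 compared libraries fitted, the limma adjusted p was 0.0371 for H2afy and 0.000870 for Lgals1. By voom the adjusted p was 0.0799 for H2afy and 0.196 for Lgals1.

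**Figure D4:**
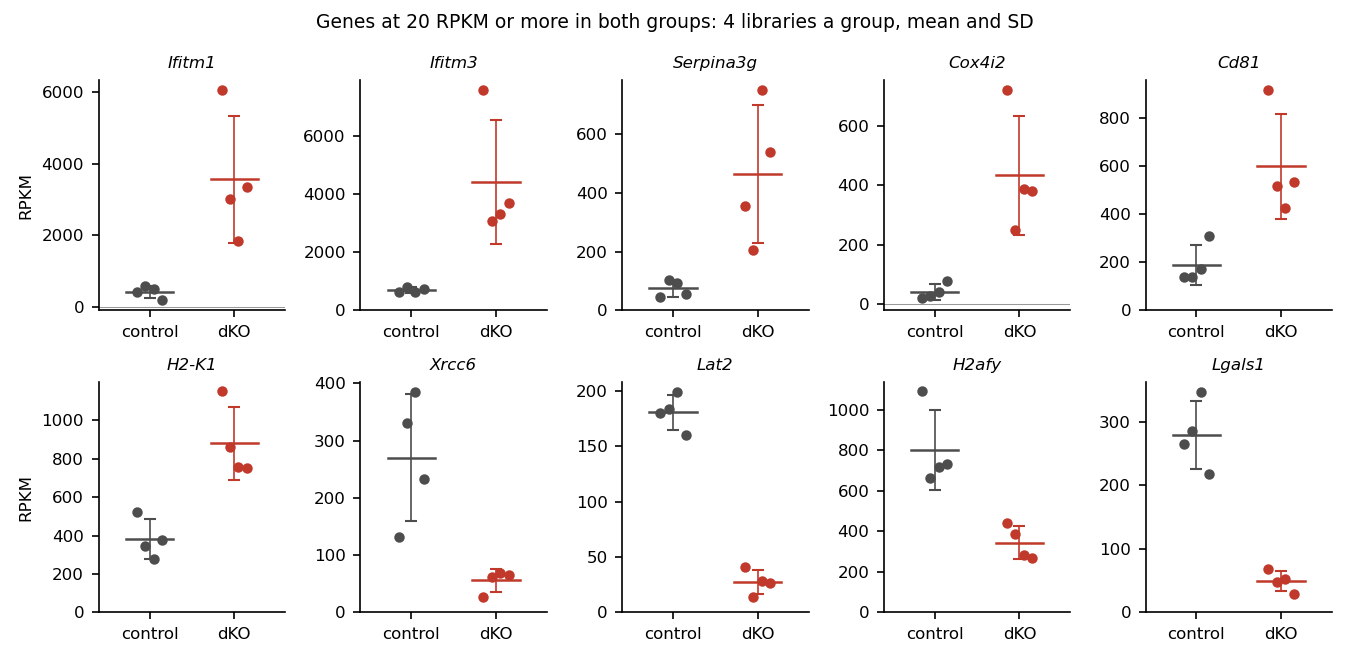
RPKM on linear y axes in each control (grey) and dKO (red) library for 10 called genes at 20 RPKM or more in both groups; points are libraries, lines are means and bars are SD. The groups do not overlap in any panel. Among genes that rose, dKO 1 is the highest dKO library for Ifitm1, Ifitm3, Cox4i2, Cd81 and H2-K1. Among genes that fell, it is the highest dKO library for Lat2, H2afy and Lgals1.

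The 46 gene lists held 1376 of the 10690 tested genes. Of the 109 called genes, 25 were members of a list (19 up, 6 down), and 30 lists had no called member. PRC2 was measured by 10 genes and PRC1, the other Polycomb complex, by 18, and none of them was called. Apart from Ezh2, the PRC2 subunit genes Eed (55.5 against 74.5 RPKM) and Suz12 (20.2 against 18.4 RPKM) and the alternative catalytic subunit gene Ezh1 (13.8 against 14.1 RPKM) were at similar means. Of 37 developmental genes known as Polycomb targets, 4 were in the table and none had enough signal to be tested. Homeobox genes of the Hox clusters gave 5 tested and none called.

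Lists of core cell functions had medians close to that of all genes. The 81 cytosolic ribosomal protein genes had a median of 0.0497 and the 75 mitochondrial ribosomal protein genes 0.109, and both signs turned when libraries were rescaled to the same sum (-0.0887 and -0.0268); the first also turned with quantile normalization (-0.102). That rescaling moved the median of all genes to -0.106. The 68 cell cycle and replication genes had a median of -0.0771 and the 167 solute carriers -0.0416, with none called in either. Without 1 library those 2 medians ranged from -0.187 to 0.0444 and from -0.0920 to 0.0448. The 78 oxidative phosphorylation genes had a median of 0.206 (from 0.0461 to 0.293 in the fits without 1 library). Their 2 called members (2.56%, beside 1.02% of all tested genes) went opposite ways, Cox4i2 up and Cox6a2 down.

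A few lists leaned to 1 side without a called member. Immediate early genes, which transcription factors such as Fos and Jun belong to and which stress and growth signals switch on, had a negative difference in 18 of 20, with a median of -0.493. Fos was at 289, 94.6, 62.6 and 116 RPKM in control and 30.2, 73.9, 68.8 and 86.7 RPKM in dKO libraries, so the groups overlapped and control 1 stood highest. Feedback genes of the ERK pathway had a median of -0.551 over 12. Ribosome biogenesis genes were negative in 40 of 49 (median -0.278) and splicing factors in 38 of 56 (median -0.169). Genes of cholesterol and fatty acid synthesis were positive in 22 of 30 (median 0.512), and proteasome subunit genes in 29 of 39 (median 0.315). These 6 medians kept their sign under each rescaling and each fit without 1 library, but their size moved. Without 1 library the proteasome median ranged from 0.00999 (without control 1) to 0.552, ERK feedback from -0.797 to -0.303, immediate early genes from -0.732 to -0.295 (without control 1), ribosome biogenesis from -0.376 to -0.123, splicing from -0.194 to -0.121 and cholesterol synthesis from 0.338 to 0.585. None of the lists was tested as a set.

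**Figure D5:**
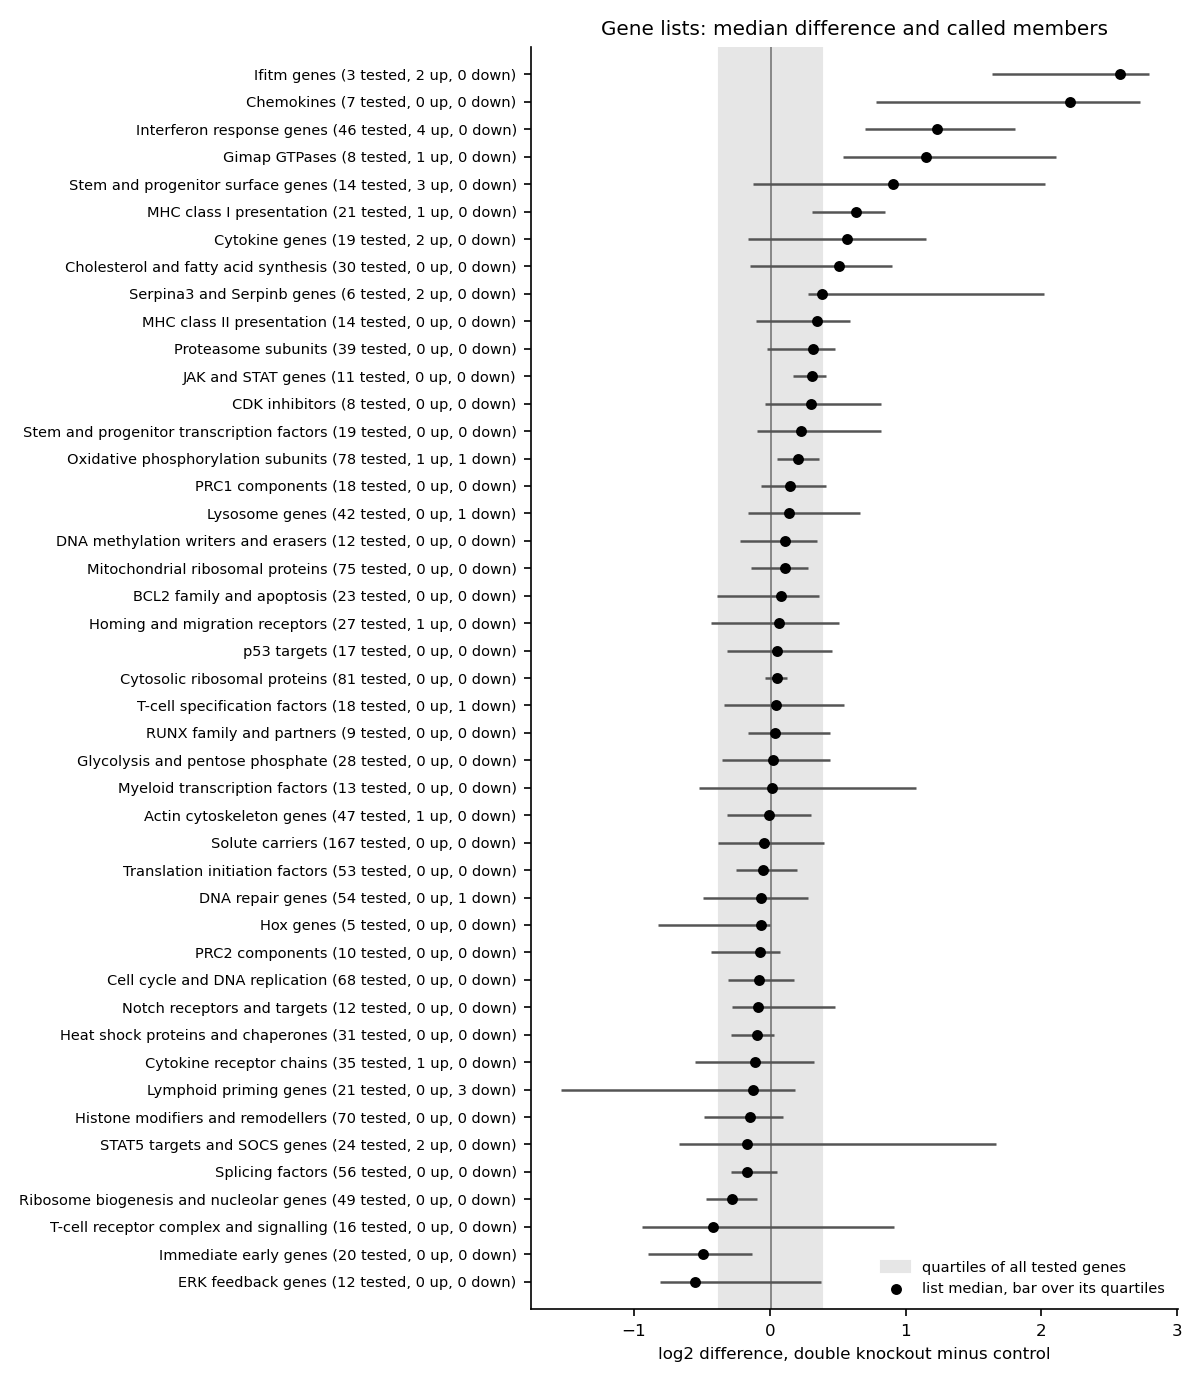
Median log2 difference, dKO minus control, of each gene list (points) with its quartiles (bars), and the number of members tested and called beside each name; the grey band spans the quartiles of all tested genes (-0.374 to 0.388). Ifitm, chemokine, interferon response, Gimap, stem cell surface, class I presentation, cytokine and cholesterol synthesis genes have medians beyond the band on the upper side, and T-cell receptor, immediate early and ERK feedback genes on the lower side.

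Members of smallest p in the lists without a call give the scale of what was not called. Sc4mol and Fdps, enzymes of sterol synthesis, were at 32.6 ± 4.57 against 85.4 ± 40.2 RPKM and 55.3 ± 26.0 against 147 ± 85.8 RPKM (SD, n = 4; limma adjusted p = 0.154 and 0.368). Nrarp, a feedback gene of Notch signalling, was at 1.29, 1.09, 3.32 and 0.901 RPKM in control and 11.1, 10.7, 11.6 and 11.1 RPKM in dKO libraries, without overlap and with a tight dKO group, yet with an adjusted p of 0.279. The third group, which shares the estimate of spread, had Nrarp between 0.0160 and 26.1 RPKM. Gfi1, a repressor gene of myeloid and lymphoid progenitors, was at 0.0237 to 2.63 RPKM in control and 3.55 to 14.7 RPKM in dKO libraries (adjusted p = 0.197).

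Cd247, the zeta chain gene of the T-cell receptor complex, was at 2.47 ± 0.584 against 0.255 ± 0.291 RPKM (SD, n = 4; limma adjusted p = 0.110). Myc was at 113 against 62.2 RPKM with overlapping groups (adjusted p = 0.595), and Cbfb, the RUNX partner, at 34.6 against 51.9 RPKM with overlapping groups (adjusted p = 0.699). Bmi1, a PRC1 subunit gene, was at 0.0289 to 25.8 RPKM in control and 14.1 to 71.8 RPKM in dKO libraries (adjusted p = 0.468). Among abundant genes of small p that missed the threshold, Dkkl1 was at 85.4 against 32.9 RPKM (adjusted p = 0.0770) and Serpinf1 at 79.4 against 21.4 RPKM (adjusted p = 0.147).

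Silence in 1 group and expression in the other was rare. By a criterion of 0.1 RPKM or less in all 4 libraries of 1 group and 1 RPKM or more in all 4 of the other, 23 genes were silent in control and expressed in dKO ETPs, and 13 of them were called. The 13 include Casp12, Ptprr, the imprinted antisense RNA Airn, the sphingosine receptor gene S1pr1, the mannose receptor gene Mrc1 and the cyclooxygenase gene Ptgs1. In the other direction there were 6, of which 4 were called: Tcf7, Cd160, Sytl3 and 0610012H03Rik. The criterion picks genes whose compared values are fully apart, and the expressed group alone lets each of them pass the filter. A share of calls above the 1.02% of all tested genes was thus set in advance. Split by control mean, 5.44% of the 662 tested genes under 1 RPKM rose (36 genes), 0.585% of those at 1 to 10 RPKM, 0.335% of those at 10 to 100 RPKM and 0.646% of those at 100 RPKM or more. A gene low in control can pass the filter on low values through the dKO libraries, so the 5.44% depends on that filter.

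Spread within the groups was similar as a description: the median SD of log2 values over the 4 libraries was 0.649 in control and 0.622 in dKO, and 47.7% of genes had the larger SD in dKO. The median SD was smallest among the 956 genes at 100 RPKM or more on average (0.392 in control, 0.406 in dKO), and it was 0.776 and 0.772 for genes at 1 to 10 RPKM. The genes nearest to the call threshold show what this spread does. Vill, an actin-binding protein gene, was at 0.455, 4.75, 0.523 and 0.0356 RPKM in control and 11.7, 9.504, 6.09 and 10.2 RPKM in dKO libraries (limma adjusted p = 0.0496). Col4a1 (0.00303 against 4.02 RPKM, adjusted p = 0.0491) and Rras (1.65 against 15.4 RPKM, adjusted p = 0.0490) were the next, and all 3 lost their call in 6 or more of the 8 fits without 1 library.

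Called genes were spread over the chromosomes, and 108 of the 109 could be placed on GRCm38. None of 343 tested genes of the X chromosome was called. Among 7821 pairs of neighbouring tested genes within 100 kb, 133 had at least 1 called member and 9 had both called, in each case in the same direction. These pairs joined 16 genes: Serpina3f and Serpina3g on chromosome 12, Rnase12 and Rnase4 on chromosome 14, Ifitm1 and Ifitm3 on chromosome 7, Iigp1 and F830016B08Rik on chromosome 18, Pmm1 and Xrcc6 on chromosome 15 (both fell), Igf2r and Airn on chromosome 17, and the run of Abcg3, Gbp8, Gbp9 and Gbp4 on chromosome 5. Gbp8, Gbp9 and Gbp4 have overlapping gene models, and their reads may not be separable. Gbp4 was at 0.450 against 13.6 RPKM, Gbp8 at 1.27 against 22.3 RPKM and Gbp9 at 0.339 against 11.4 RPKM (control against dKO means; limma adjusted p = 0.0207, 0.0314 and 0.0393). All 3 lost their call in 4 or more of the 8 fits without 1 library. Igf2r, the clearance receptor of insulin-like growth factors, was at 3.75, 1.07, 3.82 and 4.53 RPKM in control and 38.0, 43.7, 24.9 and 32.9 RPKM in dKO libraries. Airn, its overlapping antisense RNA, was at most 0.0229 RPKM in control and 3.58 to 7.80 RPKM in dKO libraries, and without strand the reads of Igf2r introns and Airn cannot be told apart. The Igf2r call held in each fit without 1 library, and the Airn call in none.

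The same genes in dKO ETPs that also carried Flt3 ITD are given side by side, since that group would be compared with the same controls. Il4 was at 106, 278, 96.9 and 76.5 RPKM there, and Ifitm3 at 11015, 7482, 5034 and 2411 RPKM. Adamdec1 ranged more widely there, at 196, 1299, 662 and 29.8 RPKM, as did Efna1 at 5.34, 67.8, 18.5 and 3.31 RPKM. On the falling side, Cox6a2 was at 0 in all 4, Tcf7 at 0, 0.120, 0.814 and 0 RPKM, and Cd7 at 65.7, 0.0516, 33.6 and 6.22 RPKM.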

How the data were processed

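Messenger RNA of 12 libraries of sorted ETPs in 3 groups was sequenced, and 1 table of RPKM values per gene was deposited. Per the submitters' processing notes, TopHat2 2.0.10, SAMtools 0.1.19 and HTSeq 0.5.4p5 were used with build mm10; how the authors calculated RPKM or set the counting, strand included, is not given in the sources used here. All RPKM values came out as whole reads in fixed steps (100.0% of 13016 genes, tolerance 0.0001 of a read), so the deposited values keep each library's depth. PCR amplification of 100 cells means that reads are not independent molecules.

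Groups were taken from the labels. Genes at 1 RPKM or more in at least 4 of 12 libraries entered 1 limma model (limma 3.58.1, R 4.3.3) of log2(RPKM + 1) values, with a mean-variance trend and all 3 groups (9 residual degrees of freedom), and Benjamini-Hochberg adjusted p was taken over all 10690 tested genes. Single measures were compared with exact two-sided permutation tests in SciPy 1.17.1. The fit was tested on simulated data. Genes named are the targeted genes; the 15 called genes of largest difference in each direction without overlap and with 5 RPKM or more; the 8 of smallest p in each direction at 20 RPKM or more in both groups; up to 5 called members of each list, or else the 2 of smallest p; called neighbours; and the 3 called genes nearest the threshold. Some names given as context, such as Kit, Ly6a, Meis1, Rag2, Gata3, Lck, Cish, Isg15, B2m, Ifitm2, Sdcbp, Eed and Fos, were chosen after their values were seen. Positions are from GENCODE M21 on GRCm38. The genes compared and all lists were chosen with earlier results of these data known. Alternatives covered the pseudocount, filter, scaling, weights, libraries, replicate block, fold threshold and voom. Some genes that the rule gives are not reported here.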

Additional observations from a re-analysis of the deposited data

Results flagged for a closer look

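In 17 of 110 sets of 4 libraries checked, 1 library stood apart from the other 3. Its gap to its nearest neighbour took most of the group's range (above Dixon's 95% limit for 4 values). For independent normal values about 1 in 20 sets would pass that limit. RPKM values can be skewed, the sets share libraries, and most hold genes picked for their differences. That rate therefore does not apply to the 17, and how many chance would give was not tested. dKO 1 stood apart in 6 of the 17. It was highest for Rnase12 (gap ratio 0.841), Ifitm3 (0.862) and Ddx3y (0.999), and lowest for Esam (0.831), Abcg3 (0.880) and Xrcc6 (0.864). Control 4 was highest among controls for Rnase12 (0.915), Rnase10 (0.847) and Procr (0.967), all 3 of them genes that rose in dKO libraries.

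Among the other dKO libraries, dKO 2 was the lowest for Efna1 (0.948), dKO 3 the highest for Ly6d (0.916), and dKO 4 the highest for Socs2 (0.871), Cox6a2 (0.951) and Hemgn (1.0, at 0.0465 RPKM beside 3 libraries at 0). Among the controls, control 2 was the highest for Esam (0.984, at 5.47 RPKM beside at most 0.0865 RPKM), control 3 the lowest for Cd244 (0.841) and control 1 the highest for H2afy (0.846).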

How the results depend on the processing

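The count of 109 called genes became 64 without a filter on low values, 210 with array weights, 45 against a fold of 1.5, 5 by voom on the recovered reads and 45 without replicate 1 of each group. Leaving out 1 library gave 58 to 95, and the lower values came without dKO 4 (58), dKO 3 (63) and dKO 1 (67). The other alternatives tried (pseudocounts of 0.1 and 5, a 5 RPKM filter, 3 rescalings, no trend, 8 libraries only) gave 90 to 136. With replicate number as a replicate block 85 genes were called, 80 of them among the 109; same-numbered libraries did not deviate together (r from -0.146 to 0.126), so the numbers were not taken as pairs. The Ezh2 difference ranged from -19.6 to -15.3 RPKM and the Runx1 difference from 21.3 to 28.7 RPKM without 1 library, where 3 against 4 cannot go below an exact p of 0.0571. Runx1 was 24.4 RPKM higher (exact permutation p = 0.0571) after rescaling to the same sum. The difference in genes detected, not called, was 79.5 at 1 RPKM and -47.5 at 10 RPKM, and -40.4 to 253 without 1 library (-2.75 without control 4, -40.4 without dKO 2). Precision is limited by 4 libraries a group: the median SD of log2 values in control was 0.541 for genes under 1 RPKM, 0.776 at 1 to 10, 0.590 at 10 to 100 and 0.392 at 100 or more.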
